A study of Homo sapiens with 4 samples.

Results

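The S100 genes are described here by 10 members of the S100A family on chromosome band 1q21, namely S100A2, S100A4, S100A6, S100A7, S100A8, S100A9, S100A10, S100A11, S100A14 and S100A16. They are 10 of 56655 gene symbols in the count tables and were taken by symbol. They were chosen by family and selected on the fold changes and counts of these same libraries, shFOXK2 against shCtrl, so the fold changes of the 10 genes, their standard errors (SE) and the number past a threshold are a description with no test. S100 proteins are small calcium sensors with a pair of EF-hand motifs, which are helix-loop-helix folds that hold a calcium ion. Most work as dimers that open a binding surface when calcium rises and then hold a target such as an annexin, myosin or p53, and several are also released from cells and act on receptors such as RAGE and TLR4. Their genes lie together on 1q21 near those of the epidermal barrier, and in carcinomas S100A4 is known for its link to motility and S100A8 and S100A9 for inflammation.

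RNA-seq was done on OVCAR5, an established human cell line labelled as ovarian cancer, which had been transduced to express a short hairpin RNA. The 2 shCtrl libraries came from cells with a control hairpin and the 2 shFOXK2 libraries from cells with a hairpin against FOXK2, a forkhead transcription factor. Both groups carried a stably integrated lentiviral hairpin vector, and per the study's methods the cells were puromycin-selected populations. The control hairpin was nontargeting, and a single FOXK2 hairpin was sequenced. The titles number the libraries as replicates, and the study counts them as biological replicates. Neither says whether the transductions were separate, so the spread between libraries may be in part technical.

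Library totals ran from 14284005 to 21950873 counts, and 3 counts, used as the floor of detection, equalled 0.137 to 0.210 CPM, the unit used here for counts relative to the size of the library. FOXK2, the targeted gene, was counted 1796 and 1499 times in shCtrl and 1086 and 1084 times in shFOXK2. The groups did not overlap in CPM, and the log2 fold change of shFOXK2 over shCtrl was -0.36 (SE 0.25, edgeR quasi-likelihood test, adjusted p = 0.257), with adjusted p from 0.166 to 1.00 over the alternatives, so the transcript counts alone did not separate the groups past the threshold. By qRT-PCR and Western blot the study itself found less FOXK2 mRNA and protein in OVCAR5 cells carrying its FOXK2 hairpins. Of 16417 tested genes, 7939 (48.4%) had an adjusted p under 0.05, 4219 (25.7%) higher and 3720 (22.7%) lower in shFOXK2. The median log2 fold change of all tested genes was 0.04. Summed epithelial markers (8 genes) were at 4232 to 5752 CPM in every library, although 3 of them, among them CDH1 with 459 and 260 counts against 13 and 24, fell in shFOXK2. The 5 ovarian serous markers summed to 36.9 and 33.1 CPM in shCtrl and 18.8 and 15.9 in shFOXK2, and the 3 that were tested were past the threshold. PAX8 fell from 351 and 335 counts to 156 and 162 (log2 fold change -0.88, edgeR adjusted p = 0.0263). It was past the threshold in 8 of 12 alternatives, and not with offsets on GC or A content. With a library left out its value was -0.74 to -1.11. MUC16 fell from 397 and 145 counts to 0 and 8 (-5.76, adjusted p = 2.45e-05, and -4.94 to -10.89 with a library left out), whereas MSLN rose from 75 and 52 to 112 and 116 (1.10, adjusted p = 0.0151). MUC16 passed the count filter only through shCtrl, so its direction was set by the filter. WT1 and SOX17 had at most 3 counts in any library.

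The 250 bases before the RefSeq start site (GRCh38.p14) are shown for 4 genes. S100A9 and S100A4 had the lowest and highest fold changes of the 10, and S100A6 and S100A10 are abundant genes whose groups overlapped. Each is written 5′ to 3′ on the strand of the gene, and capitals mark the letters TATAAA, the core of a TATA box. The S100A9 window is chr1:153357604-153357853 on the plus strand, and the windows of S100A4 (chr1:153545807-153546056), S100A6 (chr1:153535992-153536241) and S100A10 (chr1:151993860-151994109) are on the minus strand.
S100A9: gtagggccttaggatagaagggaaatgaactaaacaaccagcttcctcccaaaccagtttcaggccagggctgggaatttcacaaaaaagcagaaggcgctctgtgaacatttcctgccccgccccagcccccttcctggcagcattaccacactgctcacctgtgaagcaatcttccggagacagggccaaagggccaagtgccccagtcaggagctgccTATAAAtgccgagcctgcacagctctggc
S100A4: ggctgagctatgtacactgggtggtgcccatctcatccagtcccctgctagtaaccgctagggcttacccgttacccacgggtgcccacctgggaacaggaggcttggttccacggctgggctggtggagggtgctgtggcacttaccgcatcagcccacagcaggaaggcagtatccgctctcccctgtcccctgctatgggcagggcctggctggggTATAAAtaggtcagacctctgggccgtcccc
S100A6: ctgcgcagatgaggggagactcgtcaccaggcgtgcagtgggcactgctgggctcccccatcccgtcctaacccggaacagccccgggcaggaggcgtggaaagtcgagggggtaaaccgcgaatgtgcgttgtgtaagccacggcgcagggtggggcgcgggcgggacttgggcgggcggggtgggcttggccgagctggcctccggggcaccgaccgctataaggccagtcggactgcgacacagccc
S100A10: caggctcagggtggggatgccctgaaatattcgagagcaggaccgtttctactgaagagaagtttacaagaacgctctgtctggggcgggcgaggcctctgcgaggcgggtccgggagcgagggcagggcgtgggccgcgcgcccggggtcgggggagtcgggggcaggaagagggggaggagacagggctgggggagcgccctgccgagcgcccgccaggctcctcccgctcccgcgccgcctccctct

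TATAAA stood at positions -29 to -24 before the start of S100A9 and at -31 to -26 before that of S100A4, and also before the starts of S100A7 and S100A8. Thus 4 of the 10 genes held it, compared with 10.7% of 35116 promoters of the same length, searched on both strands. S100A2, S100A8 and S100A16 had several windows each, and a gene counted if any of them matched. The percentages count single promoters, so the units differ. The forkhead motif TGTTTAC was in no window of the 10 genes and in 2.98% of all promoters. The AP-1 motif TGANTCA was found once, before S100A2 (6.57% of all promoters), the C/EBP motif TTGCNNAA once, before S100A11 (9.05%), and the NF-kB consensus at 1 place, before S100A14, where it reads as a match on both strands (9.96%). These are matches of letters in a 250-base window and say nothing about binding. The S100A4 start used by RefSeq lies inside the longer gene body that GENCODE gives.

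Of the 10 genes, 8 had enough counts to be tested and S100A7 and S100A8 did not. Among the 8, 4 were past the threshold, 3 of them higher in shFOXK2 (S100A2, S100A4 and S100A14) and 1 lower (S100A9), beside 48.4% of all tested genes past it. S100A6, S100A10, S100A11 and S100A16 were not past it. With an offset on GC or A content 6 were past it, S100A11 and S100A16 among them. The count was 2, S100A4 and S100A9, when shCtrl replicate 1 was left out, and 2 to 4 over all libraries left out in turn. CPM of the groups did not overlap for 5 genes that were higher in shFOXK2 and 1 that was lower, beside 75.4% of all tested genes, and overlapped for S100A6 and S100A10. The median log2 fold change of the 8 was 0.49, with 6 above 0 and 2 below.

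S100A8 and S100A9 together form calprotectin, a protein of neutrophils, monocytes and stressed epithelia that sequesters zinc and manganese and is released as an alarmin. S100A9 had 296 and 256 counts in shCtrl against 0 and 2 in shFOXK2. It was thus present in both control libraries and at or under the floor in both shFOXK2 libraries, with no overlap. In CPM the means were 14.6 ± 1.89 and 0.0548 ± 0.0775 (SD, n = 2 each). The summed counts of 552 and 2, scaled to library size, gave a ratio of shCtrl over shFOXK2 of 233, with an exact 95% interval of 64.3 to 1931 that covers counting error only. The fitted log2 fold change was -7.74 (SE 0.60), a value that rests on the small count added by the fit, and only 14 of the tested genes had a lower one. Without shFOXK2 replicate 2 the fitted value was -11.01, since the remaining library had no count, and without shFOXK2 replicate 1 it was -6.99.

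Its partner S100A8 had 0 and 2 counts in shCtrl and none in shFOXK2. S100A7 (psoriasin, an antibacterial protein of the epidermis) had a single count, in shFOXK2 replicate 1. Both were at or under the floor in all 4 libraries, so neither a level nor a fold can be given, and at this depth S100A9 was seen without S100A8. S100A7 has a close copy, S100A7A, and reads that fit both may have been dropped in counting.

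S100A10 (p11) sits with annexin A2 at the cell membrane and helps to place plasminogen and ion channels there, and unlike its relatives it no longer binds calcium. In shCtrl 8522 and 7124 reads were counted, and in shFOXK2 5884 and 11004. The shFOXK2 libraries fell on either side of the upper control library, 413 and 603 CPM against 381 and 443, so the groups overlapped. The mean was 412 ± 43.6 CPM in shCtrl and 508 ± 135 in shFOXK2, a log2 fold change of 0.30 (SE 0.25), which was -0.03 without shFOXK2 replicate 2 and -0.07 with an offset on A content.

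S100A11, which binds annexin A1, had 5142 and 4536 counts in shCtrl against 5369 and 5234 in shFOXK2. In CPM it was at 230 and 282 in shCtrl and 377 and 287 in shFOXK2, so that the groups just failed to touch, with shFOXK2 replicate 2 close to shCtrl replicate 2. Its log2 fold change was 0.37 (SE 0.24). With offsets on GC or A content it was past the threshold, at up to 0.72. A processed copy listed as S100A11P1 had 1 or 2 counts in each library and S100A11P2 had none.

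S100A6 (calcyclin) binds the ubiquitin ligase adapter CACYBP and several annexins and is abundant in proliferating epithelial cells and fibroblasts. In shCtrl 11171 and 10389 reads were counted, and in shFOXK2 5826 and 10249. In CPM the low library was shFOXK2 replicate 1 at 409, and shFOXK2 replicate 2 at 562 lay between the control libraries at 500 and 646, so the groups overlapped. The log2 fold change was -0.24 (SE 0.25) and turned to as much as 0.11 with offsets on GC or A content. An unnamed gene on the opposite strand overlaps its exons, and without a stated strand setting reads of both cannot be told apart.

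S100A4 (metastasin) binds nonmuscle myosin IIA and promotes its disassembly. Counts were 223 and 202 in shCtrl, and 1016 and 2687 in shFOXK2. Both shFOXK2 libraries lay far above both controls, 71.3 and 147 CPM against 9.98 and 12.6, and they also differed from each other, with a log2 ratio of replicate 2 over replicate 1 of 1.05, beyond the 95th percentile of that ratio over all tested genes (0.98). Mean CPM was 11.3 ± 1.83 in shCtrl and 109 ± 53.8 in shFOXK2, with a fitted log2 fold change of 3.28 (SE 0.35), or 9.72-fold. Of all tested genes 689 (4.20%) had a higher value. It was past the threshold under all 12 alternatives, at 3.18 to 3.65. With a library left out the value was lowest at 2.63, without shFOXK2 replicate 2. These refits use the libraries on which the gene was chosen, so they describe the processing and are no test.

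**Figure D1:**
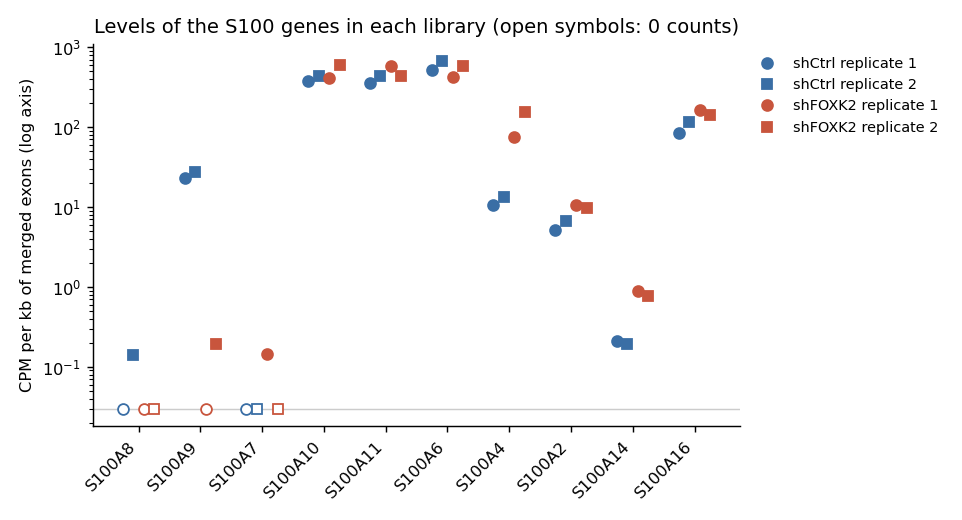
Level of each of the 10 S100 genes in each library, in CPM per kb of merged exons on a log axis. Circles are replicate 1, squares replicate 2, blue shCtrl and red shFOXK2, and open symbols on the lower line are libraries with 0 counts. S100A9 drops to 0 and 0.191 in shFOXK2, S100A4 at 75.4 and 156 lies above its controls in both shFOXK2 libraries, and S100A6 and S100A10 overlap between groups.

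S100A2 is a mainly nuclear protein of basal epithelial cells that binds p53. Counts were 177 and 168 in shCtrl, and 232 and 272 in shFOXK2. Both shFOXK2 libraries were higher, 16.3 and 14.9 CPM against 7.92 and 10.4. Mean CPM was 9.18 ± 1.79 in shCtrl and 15.6 ± 0.965 in shFOXK2, with a fitted log2 fold change of 0.77 (SE 0.30), or 1.70-fold. It was past the threshold in 7 of 12 alternatives and in 1 of the 4 fits that left out a library, the one without shCtrl replicate 2, and ran from 0.54 to 0.90 in those 4.

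S100A14 and S100A16 are neighbours with 1109 bases between them, and their proteins are epithelial and broadly expressed, respectively. S100A14 was scarce, with 6 and 4 counts in shCtrl against 16 and 18 in shFOXK2. It passed the count filter only through shFOXK2, so its direction was set by the filter. Both shFOXK2 libraries lay above both controls, at 0.259 ± 0.0140 and 1.05 ± 0.0960 CPM, and the log2 fold change of 1.99 (SE 0.53) rested on few reads and was not past the threshold with DESeq2 or without either shCtrl library. S100A16 had 3165 and 3142 counts in shCtrl against 3934 and 4348 in shFOXK2. Its shFOXK2 libraries at 276 and 238 CPM were above the controls at 142 and 195, with a log2 fold change of 0.61 (SE 0.24). It was not past the threshold in this fit, but was in 7 of 12 alternatives.

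**Figure D2:**
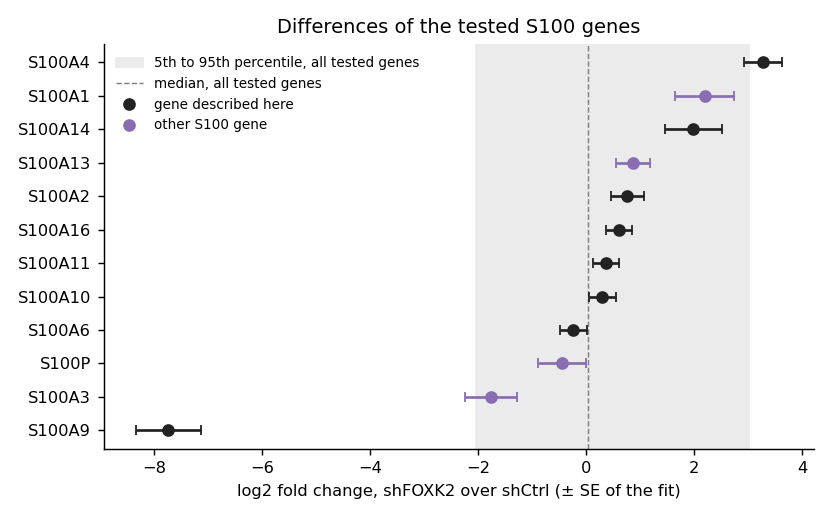
Log2 fold change of shFOXK2 over shCtrl for the 8 tested S100 genes (black) and for 4 further S100 genes (purple), with bars of ± 1 SE from the edgeR fit, beside the median (dashed) and the 5th to 95th percentile (-2.05 to 3.02, grey) of all tested genes. S100A9 lies to the left of the grey band, S100A4 just to its right, and the others inside it.

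Compared per length, as CPM per kb of merged exons, the genes fell into separate ranges. In shCtrl S100A6 was highest at 515 and 665, followed by S100A10 at 377 and 438 and S100A11 at 354 and 435, and the last pair overlapped. S100A16 at 83.2 and 115, S100A9 at 23.1 and 27.8, S100A4 at 10.5 and 13.3, S100A2 at 5.12 and 6.76 and S100A14 at 0.210 and 0.195 each lay apart from the next. The spacing depends on the length used. Divided by the length of the canonical transcript, S100A6 was at 1152 and 1488 and S100A10 at 568 and 660, apart from S100A11 at 409 and 501, whereas S100A4 at 19.4 and 24.5 overlapped S100A9, which kept 23.1 and 27.8. In shFOXK2 the ranges of S100A6 (421 and 579), S100A10 (408 and 596) and S100A11 (580 and 442) overlapped one another by merged exons, but by canonical length S100A6 at 942 and 1295 lay apart from S100A10 at 615 and 899 and S100A11 at 669 and 510. By merged exons S100A4 at 75.4 and 156 overlapped S100A16 at 162 and 140 in range, and it had moved from percentile 74.8 to percentile 98.3 of the 14405 tested genes with a known length. By canonical length its percentiles were 76.7 and 98.0. S100A9 went from percentile 87.8 to 3.01 by merged exons and from 79.4 to 1.78 by canonical length, and by merged exons S100A2 went from 59.4 to 72.6 and S100A14 from 8.03 to 21.6. S100A6, S100A10 and S100A11 were, by the same measure, at percentile 99.6 to 99.8 in both groups.

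The levels of all 21 S100 genes, taken per length and summed, were 1378 and 1712 CPM per kb of merged exons in shCtrl and 1666 and 1937 in shFOXK2, ranges that overlapped. S100A6, S100A10, S100A11 and S100A16 together made up 96.4% and 96.5% of this sum in shCtrl and 94.3% and 90.7% in shFOXK2. The share of S100A6 was 37.3% and 38.9% in shCtrl and 25.3% and 29.9% in shFOXK2, lower in both. S100A4 took 0.765% and 0.775% in shCtrl and 4.52% and 8.04% in shFOXK2, and S100A9 1.68% and 1.62% against 0% and 0.00988%. The largest share belonged to S100A6 in both shCtrl libraries, to S100A11 in shFOXK2 replicate 1 (34.8%) and to S100A10 in shFOXK2 replicate 2 (30.8%). This ranking holds for merged exon lengths. With canonical lengths S100A6 had the largest share in all 4 libraries, 49.6% and 51.2% in shCtrl and 35.6% and 39.8% in shFOXK2, and was again lower in both shFOXK2 libraries. Counts of the 10 genes were 0.131% and 0.154% of all counts in shCtrl and 0.156% and 0.191% in shFOXK2.

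**Figure D3:**
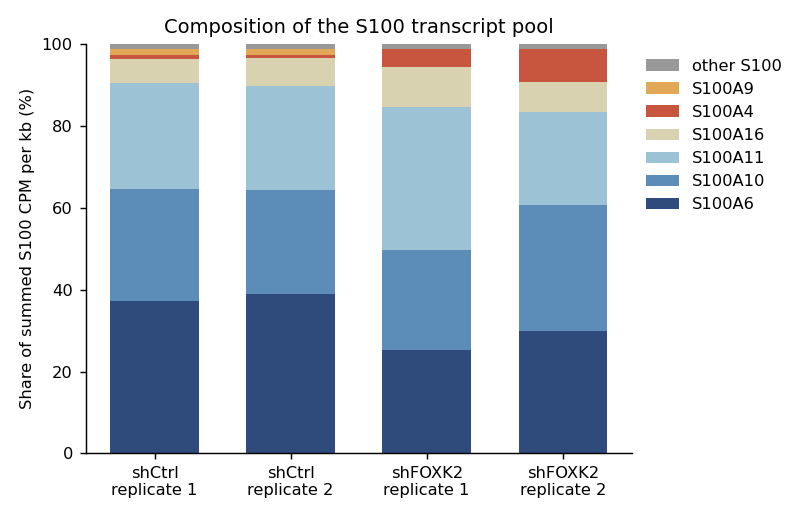
Share of each S100 gene in the summed level (CPM per kb of merged exons) of 21 S100 genes, in percent, as 1 stacked bar per library. S100A6 shrinks from 37.3% and 38.9% in shCtrl to 25.3% and 29.9% in shFOXK2, S100A4 grows to 4.52% and 8.04%, and the S100A9 band of the shCtrl libraries is not visible in shFOXK2.

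Between the shFOXK2 libraries the log2 ratio of replicate 2 over replicate 1 in CPM was 1.05 for S100A4, 0.55 for S100A10 and 0.46 for S100A6, and it was -0.39 for S100A11, -0.21 for S100A16, -0.17 for S100A14 and -0.13 for S100A2. Over all tested genes this ratio had a median of 0.01 and a 5th to 95th percentile of -0.73 to 0.98, so that S100A4 alone among these 7 lay outside. The S100A9 ratio rests on 0 and 2 counts. Between the shCtrl libraries the same ratio was 0.22 to 0.46 for 7 of the 8 genes and -0.08 for S100A14, with a median of 0.03 over all tested genes and a 5th to 95th percentile of -1.12 to 0.53.

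Of 11 other S100 genes 4 were tested, 2 of which rose and 1 fell (edgeR quasi-likelihood test), beside 48.4% of all genes past the threshold. This was 1 gene without shFOXK2 replicate 2. S100A3, which binds zinc and is known from hair cuticle, had 51 and 53 counts in shCtrl against 6 and 21 in shFOXK2 (log2 fold change -1.76, SE 0.48, adjusted p = 0.00867, -2.72 without shFOXK2 replicate 2 and -1.28 without shFOXK2 replicate 1). It lies in an intron of S100A4 on the same strand and differed in the opposite direction. S100A1, a protein of cardiac and skeletal muscle, had 9 and 4 counts against 14 and 38 (2.20, SE 0.55, adjusted p = 0.00495, not past the threshold without shFOXK2 replicate 2). S100A13, which takes part in the release of FGF1, had 158 and 124 against 154 and 296 (0.87, SE 0.32, adjusted p = 0.0357), and kept a call in 1 of 4 fits that left out a library. S100A1 and S100A13 share exonic sequence on opposite strands, so their reads cannot be told apart without a strand setting. S100A1 passed the count filter only through shFOXK2, so its direction was set by the filter. S100P, a protein of placenta and gastrointestinal carcinomas, had 39 and 30 counts against 12 and 32 (-0.44, SE 0.44, adjusted p = 0.429). S100A5, S100A12, S100B, S100G and S100Z had at most 6 counts in any library, and S100A7A and S100A7L2 had none.

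Fused S100 genes of the same cluster encode large barrier proteins with an S100 domain at one end. Trichohyalin (TCHH), of hair follicles, rose from 10 and 5 counts to 32 and 36 (log2 fold change 2.42, SE 0.47, edgeR adjusted p = 0.00097). It passed the count filter only through shFOXK2, so its direction was set by the filter. Hornerin (HRNR) had 110 and 51 counts in shCtrl against 77 and 98 in shFOXK2 (0.40, adjusted p = 0.363). FLG had at most 15 counts and FLG2 at most 1, and RPTN, TCHHL1 and CRNN had none. Thus 1 of 2 tested fused genes was past the threshold, beside 48.4% of all tested genes. Of 7 keratinocyte markers KRT1, KRT14 and LORICRIN had no count. The summed level of the 7 was 37.4 to 43.7 CPM in shCtrl and 42.9 to 45.5 CPM in shFOXK2. Most of it was KRT10, with a mean of 38.7 CPM in shCtrl and 42.9 in shFOXK2.

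Genes of proteins that S100 proteins bind inside cells were a list of 23, of which 21 were tested: 5 rose, 3 fell and 13 were not past the threshold, beside 48.4% of all tested genes past it, 25.7% higher and 22.7% lower. The median log2 fold change of the list was -0.05, against 0.04 over all genes. FABP5, the epidermal fatty acid binding protein that pairs with S100A7, rose from 112 and 84 counts to 534 and 828 (3.02, SE 0.29, adjusted p = 6.9e-06 by the edgeR test). SUGT1, a cochaperone bound by S100A6, rose by a log2 fold change of 1.76 (adjusted p = 0.000183), and COPS5, a subunit of the COP9 signalosome, by 1.37 (adjusted p = 0.000656). With an offset on A content the FABP5 value was 2.19, and with one on GC content the SUGT1 value was 1.00, both still past the threshold. ANXA6, an annexin of S100A6 and S100A11, fell from 4381 and 4110 counts to 1099 and 1517 (-1.49, SE 0.24, adjusted p = 0.000281).

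The closest partners of the abundant members were named after their values were seen. ANXA2, the partner of S100A10, had 52724 and 41371 counts in shCtrl against 30102 and 44526 in shFOXK2, a log2 fold change of -0.11 (SE 0.25, edgeR adjusted p = 0.729). ANXA1, the partner of S100A11, was at 0.91 (adjusted p = 0.0116) and CACYBP, the partner of S100A6, at 1.07 (adjusted p = 0.00295), but with an offset on A content their values were -0.39 and -0.39, so their direction depends on the scaling.

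Receptors of extracellular S100 proteins and their adaptors were 10 genes, 8 of them tested, of which 2 rose, 4 fell and 2 were not past the threshold (median log2 fold change -0.61), beside 48.4% of all tested genes past it and 22.7% lower. MCAM, a cell adhesion molecule that binds S100A8 and S100A9, fell from 13262 and 10716 counts to 2684 and 3437 (-1.74, SE 0.23, edgeR adjusted p = 6.97e-05). NPTN (neuroplastin), a receptor of S100A8, fell by 1.20 on the log2 scale (adjusted p = 0.000859), and CD14, a coreceptor of TLR4, by 1.14 (adjusted p = 0.00566). ALCAM, an adhesion molecule, rose from 4012 and 1346 counts to 4216 and 6056 (1.25, adjusted p = 0.00482), a call lost with an offset on A content, where the value was 0.19. Its value was 1.87 without shCtrl replicate 1 and 0.73 without shCtrl replicate 2. AGER, which encodes RAGE, and TLR4 were named after their values were seen. AGER was low and went from 49 and 30 counts to 99 and 175 (2.02, SE 0.36, adjusted p = 0.000526). TLR4 had 207 and 79 counts against 130 and 207 (0.52, adjusted p = 0.237).

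Transcription factors known to act at S100A8 and S100A9 in other cells were a list of 11, with 9 tested: 1 rose, 6 fell and 2 were not past the threshold (median log2 fold change -1.06), beside 48.4% of all tested genes past it and 22.7% lower. CEBPB, a factor of myeloid and inflammatory genes, fell from 3676 and 3309 counts to 779 and 620 (-2.06, SE 0.28, edgeR adjusted p = 7.98e-05). Its relative CEBPD fell from 2497 and 2217 to 490 and 741 (-1.73, SE 0.25, adjusted p = 0.000135), and HIF1A, the oxygen-regulated factor, from 14103 and 5179 to 2910 and 2946 (-1.38, adjusted p = 0.00216). FOS, a subunit of AP-1, rose from 192 and 130 counts to 395 and 992 (2.30, SE 0.34, adjusted p = 0.000136, and 1.70 without shFOXK2 replicate 2). These counts describe transcripts, and their part in the S100A9 level was not tested.

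S100A9 is a defining gene of myeloid cells, so a list of 10 myeloid markers was read beside it. Their summed level was 26.6 and 32.0 CPM in shCtrl and 10.2 and 11.4 in shFOXK2, lower in both. Most of this sum was CD14, with a mean of 19.8 CPM in shCtrl and 8.96 in shFOXK2, which was among the 3 that fell. Of the 10, 4 were tested, 3 fell and none rose, beside 22.7% of all tested genes lower. ITGAM had 161 and 130 counts against 3 and 22 (-3.35, edgeR adjusted p = 0.000205) and FPR1 16 and 17 against 0 and 2 (-3.69, adjusted p = 0.00225), both named after their values were seen. Without shFOXK2 replicate 1 these values were -2.68 for ITGAM and -2.94 for FPR1, and without shFOXK2 replicate 2 they were -5.16 and -6.95. PTPRC, which encodes the pan-leukocyte protein CD45, had 0 counts in both shCtrl libraries and 3 and 0 in shFOXK2. MPO and FCGR1A had none in any library. CSF1R, tested but not past the threshold, had 9 and 4 counts in shCtrl against 12 and 11 in shFOXK2. FPR1 passed the count filter only through shCtrl and CSF1R only through shFOXK2, so their directions were set by the filter. LYZ had 14 and 4 against 0 and 2, ELANE 2 and 2 against none, and CSF3R 3 and 0 against 3 and 2. Fibroblast markers, read beside S100A4 (also called fibroblast-specific protein), summed to 20.4 and 19.1 CPM in shCtrl and 16.4 and 13.5 in shFOXK2. Of 2 tested genes 1 was lower and none higher, beside 22.7% of all tested genes lower. PDGFRB had 127 and 87 counts in shCtrl against 2 and 8 in shFOXK2, and COL1A1 324 and 215 against 226 and 229. DCN and COL1A2 were at or under the floor, with no count in shCtrl and 0 and 3 (DCN) and 0 and 2 (COL1A2) in shFOXK2. The cultures were a cell line, and in bulk RNA a change in the number of cells of a kind and in RNA per cell cannot be told apart.

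Other EF-hand genes were a comparison list of 35, with 32 tested: 9 rose, 9 fell and 14 were not past the threshold (median log2 fold change -0.11), beside 48.4% of all tested genes past it. The number past it was 9 without shFOXK2 replicate 2. CALB2 (calretinin, a calcium buffer) rose from 79 and 52 counts to 385 and 1252 (3.82, SE 0.42, edgeR adjusted p = 1.69e-05, and 2.96 without shFOXK2 replicate 2), and like S100A4 it was higher in shFOXK2 replicate 2 than in replicate 1. CHP1, a partner of sodium-proton exchangers, fell by 1.38 on the log2 scale (adjusted p = 0.000563) and CAPN1, the large subunit of calpain 1, by 1.30 (adjusted p = 0.000617). NUCB2, the precursor of nesfatin, had a value of 1.29 (adjusted p = 0.00645) that became -0.36 with an offset on A content.

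On chromosome 1 (hg38) the 10 genes span 151982915 to 153616986, or 1.63 Mb. S100A10 and S100A11 lie at the low-coordinate end, 38646 bases apart, and S100A9 follows after a gap of 1309946 bases that holds the fused genes. From there S100A8, S100A7, S100A6, S100A4, S100A2, S100A16 and S100A14 follow in that order, and S100A9 is the only one of the 10 on the plus strand. S100A6 and S100A4, which are 7368 bases apart, had values of -0.24 and 3.28, and S100A4 and S100A2, 10971 bases apart, 3.28 and 0.77, so neighbours within the cluster differed in size of change. S100A9, at -7.74, lies on the same side of the long gap as S100A2, S100A4 and S100A14, which were higher in shFOXK2.

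Within 1 Mb on either side of the cluster, and between its members, 149 further annotated genes were counted and 52 tested, of which 4 rose, 19 fell and 29 were not past the threshold. Over all tested genes 48.4% were past it, 25.7% higher and 22.7% lower. The median log2 fold change of the neighbours was -0.41 against 0.04 for all genes. The list holds TCHH, HRNR, S100A1, S100A3 and S100A13 as well. RFX5, a regulator of MHC class II genes, fell from 1429 and 1052 counts to 243 and 303 (-1.94, edgeR adjusted p = 6.52e-05). TDRKH, a tudor domain protein of the piRNA pathway, was at -1.88 (adjusted p = 0.000434) and MINDY1, a deubiquitinase, at -1.65 (adjusted p = 0.000477). GABPB2, a subunit of the GABP transcription factor, rose from 140 and 118 counts to 397 and 535 (2.07, adjusted p = 8.99e-05). ATP8B2, a subunit of a phospholipid flippase that was named after its values were seen, fell from 232 and 184 counts to 11 and 15 (-3.76, adjusted p = 1.06e-05).

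**Figure D4:**
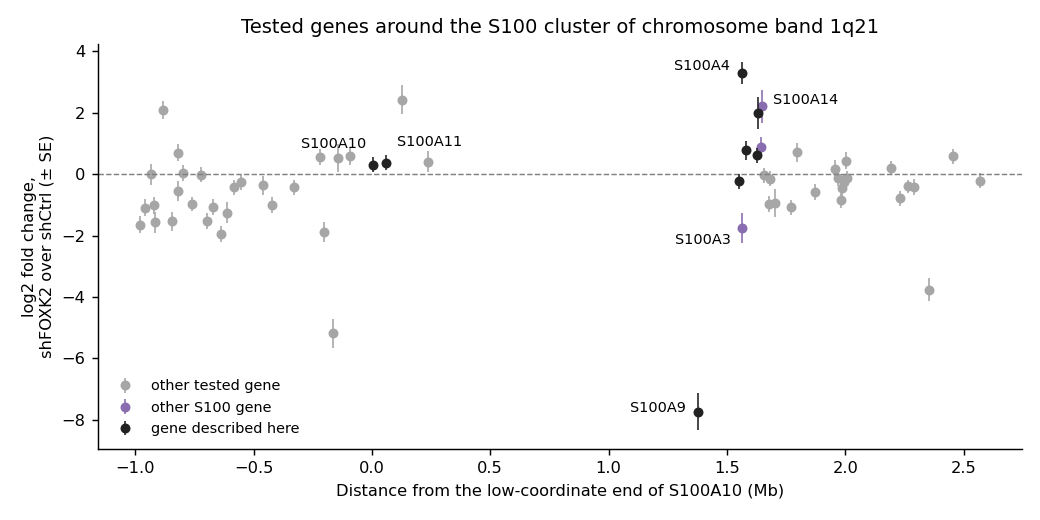
Log2 fold change of shFOXK2 over shCtrl, with ± 1 SE from the edgeR fit, against distance in Mb from the low-coordinate end of S100A10, for the 8 tested S100 genes (black), other S100 genes (purple) and other tested genes within 1 Mb (grey). S100A9 at -7.74 and S100A4 at 3.28 are the extremes of the region.

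Genes with the pattern closest to S100A9 over the 4 libraries were found by Euclidean distance between log2 CPM values centred on their mean. They were WNT10A, a secreted signalling protein (distance 0.155), LTB, a lymphotoxin (0.698), PDZK1IP1 (0.789), PTGS2, the inducible cyclooxygenase (0.796), and FGA, the fibrinogen alpha chain (0.859). WNT10A had 600 and 568 counts in shCtrl against 2 and 6 in shFOXK2. PDZK1IP1 had 5038 and 4449 against 28 and 131. The median pattern of the other 7 tested members was closest to TIMM13 (0.0602), METTL26 (0.0614), FAH (0.0691), BEND3 (0.0745) and MXRA8 (0.0758), whose log2 fold changes lay between 0.66 and 0.70. With 4 libraries and 2 groups such a likeness is a description.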

How the data were processed

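RNA from 2 shCtrl and 2 shFOXK2 OVCAR5 cultures was sequenced. The authors selected poly(A) RNA, aligned single-end reads to hg38 (STAR 2.5.2) and used HTSeq for counting. The deposited values are raw counts per gene symbol. The annotation and strand setting are not given in the sources used here.

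Groups and replicate numbers came from the titles. Counts were filtered with filterByExpr, scaled by TMM and tested 2-sided with edgeR 4.0.16 (R 4.3.3, quasi-likelihood F test) after a trial on simulated data. Some genes passed the filter through a single group, which set their direction. Examples are S100A14, S100A1, TCHH and CSF1R (through shFOXK2), and S100A9, MUC16, FPR1 and PDGFRB (through shCtrl). P-values of the 16417 tested genes were adjusted by Benjamini-Hochberg, and 0.05 was the threshold. The SE was obtained from each fold change and its F. CPM carry the TMM factors. CPM per kb use merged exon lengths of GENCODE v44, in which 36909 of 56655 symbols were matched. Intervals and floors cover counting error only.

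The members and gene lists were chosen with earlier results of these data known. Named genes were FOXK2, all S100 and fused S100 genes, up to 4 per list with the largest called change (mean log2 CPM not under 3), and the 5 nearest patterns. Others were named after their values were seen. This is said beside them, or holds for markers outside this rule, such as MUC16, MSLN, WT1, SOX17, PTPRC and DCN. Promoters came from RefSeq (GRCh38.p14). Alternatives were the exact test of edgeR, the Wald test of DESeq2 1.42.0, glmTreat at a log2 fold change of 1, DESeq2 size factors, library size alone, no filter, at least 10 counts in every library, lowess offsets (span 0.2) on GC or A content, replicate blocks and leaving out each library. The result of 1 gene near the cluster is not reported here.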

Additional observations from a re-analysis of the deposited data

How the results depend on the processing

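With glmTreat against a log2 fold change of 1, a stricter question, the number of genes past the threshold was 3386 over all genes, 2 of the 10 S100 genes, 1 of the other S100 genes, 4 partners, 2 receptors, 3 regulators, 4 other EF-hand genes and 9 neighbours on 1q21. DESeq2 put 2 of the 10 S100 genes past it, and a minimum of 10 counts in every library left 1 of the other S100 genes, since the remaining calls were on genes no longer tested. Offsets on GC or A content put 6 of the 10 S100 genes past it, the highest number under any setting. Leaving out each library in turn gave 6771 to 7775 genes in all, 2 to 4 of the S100 genes described, 1 to 3 other S100 genes, 7 to 10 partners, 5 to 7 receptors, 6 to 7 regulators, 9 to 14 other EF-hand genes and 21 to 24 neighbours. An offset on A content reversed NUCB2 (-0.36), ANXA1 (-0.39) and CACYBP (-0.39), for which the cause was not tested. The median shift in log2 fold change over all genes was 0.17 with this offset and 0.13 with the GC offset. The replicate numbers are shared by the groups without a stated meaning (correlation of deviations -0.113, 2 pairs). With the replicate block 7270 genes and 3 of the S100 genes described were past the threshold, and with crossed numbers, a setting added after seeing the data, 8350 and 5. Values of the S100 genes described kept their direction apart from S100A6 and S100A10, neither of which was past the threshold. Low counts limit S100A7, S100A8, S100A14 and the shFOXK2 level of S100A9.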
